A study of Mus musculus with 51 samples.

Results

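Collagen in bone is cross-linked by lysyl oxidases, cut by matrix metalloproteinases and shielded from that cutting by tissue inhibitors of metalloproteinases (TIMPs). The 10 genes described here were picked by name from these families: the lysyl oxidases Lox, Loxl1, Loxl2 and Loxl3, the metalloproteinases Mmp2, Mmp13, Mmp14 and Mmp16, and the inhibitors Timp1 and Timp3. They were 10 of 23358 entries measured in femurs of the vitamin C (VitC) experiment and 10 of 25938 in femurs of the Tet experiment. For DNA and histone marks, the members were the peaks lying in the gene or within 30 kb on either side of it.

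The VitC experiment compared 3 groups of C57BL/6 mice at 20 weeks of age, with 3 femur RNA libraries each. WT mice make their own VitC. Both other groups were homozygous for the Gulo tm1Mae allele and lack the last enzyme of VitC synthesis, and they differed in how long the drinking water held 3.3 g/L VitC, for all 20 weeks (VitC+) or for the first 15 weeks only (VitC+/-). The Tet experiment used 11-week femurs of Ctrl mice and of mice lacking Tet1 (Tet1 cKO), Tet2 (Tet2 cKO) or both (Tet1/2 cKO), 3 RNA libraries each; all 4 groups, Ctrl included, carried Prrx1-Cre, a recombinase driven by a promoter of limb mesenchyme, so that haematopoietic cells keep their Tet genes. 5-hydroxymethylcytosine (5hmC), the DNA base that TET enzymes make from 5-methylcytosine with VitC as a helper, was mapped by antibody pulldown (hMeDIP-seq) in femurs of the VitC+, VitC+/-, Ctrl and Tet1/2 cKO groups and in MC3T3-E1, a mouse calvarial pre-osteoblast line, grown for 28 days with 50 µg/ml VitC or without it.

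Lysyl oxidases are copper enzymes that oxidise lysines in collagen and elastin, the step from which cross-links form; Lox is the founding member and the Loxl genes encode its relatives. Collagenases such as Mmp13 cut intact fibrillar collagen, gelatinases such as Mmp2 cut the unfolded chains, and the membrane-bound Mmp14 and Mmp16 work at the cell surface, where Mmp14 also activates pro-Mmp2. TIMPs bind the catalytic site of metalloproteinases; Timp1 is secreted and Timp3 is held in the matrix. In bone, osteoblasts and osteocytes make lysyl oxidases and most of these metalloproteinases, and hypertrophic chondrocytes and late osteoblasts are known for Mmp13.

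The femur libraries of the VitC experiment held 31.2 to 47.5 M reads apart from WT replicate 1, which held 7.61 M, and those of the Tet experiment 28.6 to 49.8 M. RPKM, the read density per kilobase of exon relative to library size, was rescaled between libraries by factors of 0.757 to 1.10. A gene was tested where its RPKM before rescaling was at least 1 in at least 3 libraries. All 10 genes passed, among 12586 tested. Gulo, the deleted gene, was listed at 0.0123 to 0.0177 scaled RPKM in VitC+/-, 0.0268 to 0.238 in VitC+ and 0 to 0.537 in WT libraries, so that 1 WT library had none and this check is weak. Per the study's methods, the femurs were flushed and minced before RNA was isolated. Such bones mix many cell types, and fewer cells of a type cannot be told apart from less RNA per cell.

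Lox, the main enzyme of collagen cross-linking, was measured at 18, 6.14 and 12.6 scaled RPKM in WT femurs, 29.9, 32.2 and 57.1 in VitC+ femurs and 57.5, 23.2 and 155 in VitC+/- femurs. All WT libraries lay below all others, while the VitC+/- libraries spread around the VitC+ range. Loxl2, which also cross-links basement membrane collagen, showed the same order of means at lower levels: 6.62 ± 3.1 in WT, 17.1 ± 3.80 in VitC+ and 23.1 ± 18.7 in VitC+/- (SD, n = 3). Its VitC+/- libraries stood at 16.3, 8.78 and 44.2, and the lowest of them was below 1 WT library at 9.47.

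Loxl1, which acts mainly on elastin, was listed at 11.2, 5.23 and 5.35 in WT, 13, 10.3 and 20 in VitC+ and 14.9, 12.6 and 28.4 in VitC+/- femurs, all in scaled RPKM. Loxl3, a relative expressed at lower level here, was measured at 5.34, 2.76 and 2.99 in WT, 9.91, 6.10 and 9.31 in VitC+ and 14.3, 10.1 and 21.3 in VitC+/- femurs. Loxl3 was the lysyl oxidase whose 3 groups did not overlap at all. Lox made up 35.2 to 62.3% of the summed scaled RPKM of the 4 lysyl oxidases in a library.

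Mmp13, collagenase of cartilage and bone, was the highest of the 10 genes per length in every group. Its scaled RPKM was 166, 113 and 172 in WT, 377, 379 and 565 in VitC+ and 934, 450 and 873 in VitC+/- femurs, so that WT stood apart from both Gulo groups and VitC+/- replicate 2 lay within the VitC+ range. It supplied 69.7 to 84.9% of the summed level of Mmp2, Mmp13, Mmp14 and Mmp16 in each library, a sum without Mmp9 and other metalloproteinases. Its promoter is shown because hydroxymethylation peaks at this start site are described further on; it spans chr9:7272264-7272563 (GRCm38, RefSeq, plus strand) around the start at 7272514, and capitals mark a RUNX motif (TGTGGT, here as its reverse complement) at positions -118 to -113 from the start, an AP-1 motif (TGAGTCA, likewise reversed) at -35 to -29 and a TATA motif (TATAAA) at -16 to -11, which do not overlap.

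Mmp13 promoter: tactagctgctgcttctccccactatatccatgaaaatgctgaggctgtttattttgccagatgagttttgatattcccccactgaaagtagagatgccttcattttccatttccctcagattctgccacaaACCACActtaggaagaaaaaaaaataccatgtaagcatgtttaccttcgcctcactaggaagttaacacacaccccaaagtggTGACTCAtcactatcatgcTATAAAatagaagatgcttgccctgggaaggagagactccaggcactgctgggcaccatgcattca

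Of 32851 RefSeq promoters of this length, 5.2% hold the AP-1 letters, 16.8% the RUNX letters and 13.6% TATAAA, on either strand; a match is a run of letters, not a shown binding site. Promoters of 4 of the 10 genes were at hand (Mmp13, Mmp14, Timp1 and Timp3). The Mmp13 promoter holds 1 CpG, Timp1 8, Mmp14 10 and Timp3 24, against a median of 7 over all promoters.

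Mmp14, the membrane protease that activates pro-Mmp2, was measured at 44.5, 17.3 and 30.8 in WT, 61.5, 62.2 and 85.4 in VitC+ and 95.8, 65.5 and 156 in VitC+/- femurs (scaled RPKM). Mmp2 itself, gelatinase A, was measured at 26.3, 7.89 and 19.2 in WT, 62.3, 39.8 and 70.4 in VitC+ and 69.8, 24 and 189 in VitC+/- femurs. The VitC+/- group held both the lowest Mmp2 value of the Gulo libraries and the highest of all 9. Both genes were lower in each WT library than in any VitC+ library.

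Mmp16, another membrane-type metalloproteinase, went the other way after VitC withdrawal. Its scaled RPKM was 3.56, 3.99 and 5.20 in VitC+ femurs, 1.57, 0.953 and 1.40 in WT femurs and 0.639, 0.199 and 0.439 in VitC+/- femurs, and the 3 groups did not overlap. Per length it was the lowest of the 10 genes in each group. The ratio of Mmp16 to Mmp14 was 0.0579 to 0.0641 in VitC+ libraries, 0.0352 to 0.055 in WT and 0.0028 to 0.00667 in VitC+/- libraries.

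Timp1, the secreted inhibitor, was measured at 47.1, 9.60 and 22.5 scaled RPKM in WT, 79.3, 49.0 and 74.9 in VitC+ and 217, 57.6 and 410 in VitC+/- femurs. VitC+/- replicate 2 fell within the VitC+ range and the other two lay well above it. Timp3, the matrix-bound inhibitor, was measured at 31.9, 14.7 and 16.2 in WT, 28.6, 28.8 and 35.2 in VitC+ and 58.9, 41.0 and 103 in VitC+/- femurs; each VitC+/- library exceeded all 6 others. The summed level of Mmp2, Mmp13, Mmp14 and Mmp16 was divided by that of Timp1 and Timp3. This ratio was 3.02, 5.73 and 5.77 in WT, 4.67, 6.23 and 6.59 in VitC+ and 3.99, 5.48 and 2.38 in VitC+/- libraries, with overlap between all groups. It leaves out other genes of these families. Among those, mean scaled RPKM in WT, VitC+ and VitC+/- was 172, 317 and 823 for Mmp9. It was 81.9, 53.7 and 18.4 for Mmp8 and 26.8, 53.9 and 102 for Timp2.

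**Figure D1:**
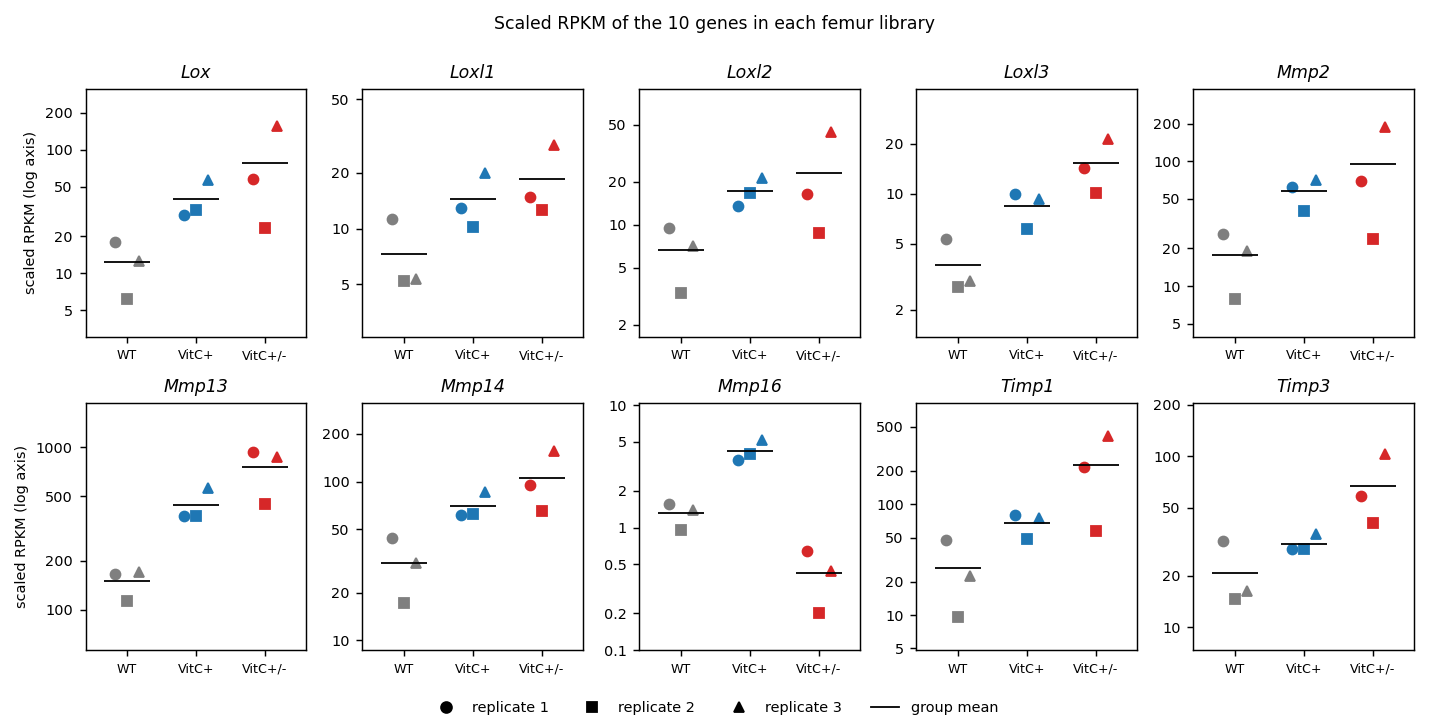
Scaled RPKM (log axis) of each of the 10 genes in WT, VitC+ and VitC+/- femurs; symbols mark replicates 1 to 3 and the line is the group mean. Mmp16 is the gene whose VitC+/- libraries (0.199 to 0.639) lie below all others, and VitC+/- replicate 2 is the lowest library of its group for all 10 genes.

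The libraries of a group differed together. VitC+/- replicate 2 had the lowest level of its group for all 10 genes and replicate 3 the highest for 8, the exceptions being Mmp13 and Mmp16. WT replicate 2 was likewise lowest for all 10. The summed scaled RPKM of 20 osteoblast and osteocyte markers ranged from 3001 to 8660 over the VitC+/- libraries, highest in replicate 3, and the summed adipocyte markers from 412 to 3436, highest in replicate 2; the part of these differences in the member values was not tested.

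VitC withdrawal was tested in VitC+/- against VitC+ femurs with limma on log2(scaled RPKM + 0.5), a scale that understates changes of low genes such as Mmp16. Mmp16 fell by 2.37 (SE 0.25, adjusted p = 0.00132), which is 5.18-fold on this scale, and it was the 1 member called at an adjusted p under 0.05; over all genes tested, 13.4% were called, 7.52% lower and 5.93% higher. The other 9 members had positive log2 fold changes that did not pass: 1.37 (SE 0.71, adjusted p = 0.22) for Timp1, 1.02 (SE 0.36, adjusted p = 0.0843) for Timp3, 0.78 for Loxl3, 0.73 for Mmp13, 0.63 for Lox, and 0.14 to 0.53 for the rest. Timp3 and Loxl3 were the members whose VitC+/- libraries all lay above VitC+, as 21.4% of all genes did, and Mmp16 the member whose libraries all lay below, as 19.1% did. The median over the 10 members was 0.58, beside 0.02 over all genes. Without VitC+/- replicate 2, chosen to be left out like every other library in turn, 4 members were called: Mmp13, Timp1 and Timp3 as higher and Mmp16 as lower. Without WT replicate 1, 2 were (Mmp16 and Timp3). The share of all genes called in these fits is not given here, so the added calls have no background beside them.

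Against WT femurs, with the same VitC+/- libraries, 9 of the 10 members were called, 8 higher and Mmp16 lower, where 31.3% of all genes were called (15.3% higher, 15.9% lower). Timp1 rose most, by 2.96 on the log2 scale (SE 0.71, adjusted p = 0.0131), followed by Lox at 2.35 (SE 0.62, adjusted p = 0.0198), Mmp13 at 2.27 (SE 0.31, adjusted p = 0.00137) and Mmp2 at 2.07 (SE 0.67, adjusted p = 0.0427). Loxl3 rose by 1.90, Mmp14 by 1.77, Timp3 by 1.65 and Loxl1 by 1.30. Mmp16 fell by 0.98 (SE 0.25, adjusted p = 0.0174), and Loxl2 had 1.53 (SE 0.53, adjusted p = 0.0532). The groups did not overlap for 7 of the higher members and for Mmp16, against 21.4% of all genes higher and 21.3% lower; Mmp2 was called although its lowest VitC+/- library (24) lay below its highest WT library (26.3). With no filter on low values the calls of Loxl1 (adjusted p = 0.0534) and Mmp2 (adjusted p = 0.0779) by limma were lost, and a fit of these 2 groups alone lost Mmp2. Leaving out WT replicate 3 ended the calls of Lox, Loxl1, Mmp2 and Mmp16, and 5 of the 10 remained called; 6 did without WT replicate 2 or VitC+/- replicate 1, 7 without VitC+/- replicate 3 and 8 without any 1 VitC+ library, Mmp2 being lost each time. The calls of Loxl3, Mmp13, Mmp14, Timp1 and Timp3 held without any single library. The share of all genes called with a library left out is not given here.

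WT and VitC+ femurs share their libraries with the comparisons above. Each of the 10 members had a lower mean in WT, with log2 fold changes from -1.78 for Mmp2 to -0.63 for Timp3 and a median of -1.40, but none passed the test (adjusted p = 0.0762 to 0.322). No gene at all passed in this comparison by limma without a replicate block, 0% of those tested, while 2769 had an unadjusted p under 0.05. In 8 of the 10, all except Loxl1 and Timp3, every WT library lay below every VitC+ library, as did 14.5% of all genes. The same direction was seen in 20 of 20 osteoblast and osteocyte markers, with a median of -1.67 and sums of 1425 to 4623 scaled RPKM in WT, none of them called. It was also seen in 12 of 12 osteoclast, 7 of 7 chondrocyte, 8 of 9 fibroblast, 11 of 11 adipocyte and 10 of 10 endothelial markers, and 12 of 12 neutrophil markers had a higher mean log2 level in WT. Their part in the member values was not tested. Without WT replicate 1, the shallow library, Loxl3, Mmp13 and Mmp16 were called as lower in WT, and without VitC+/- replicate 2 Mmp13 was. How many of all genes were called in those fits is not given here.

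**Figure D2:**
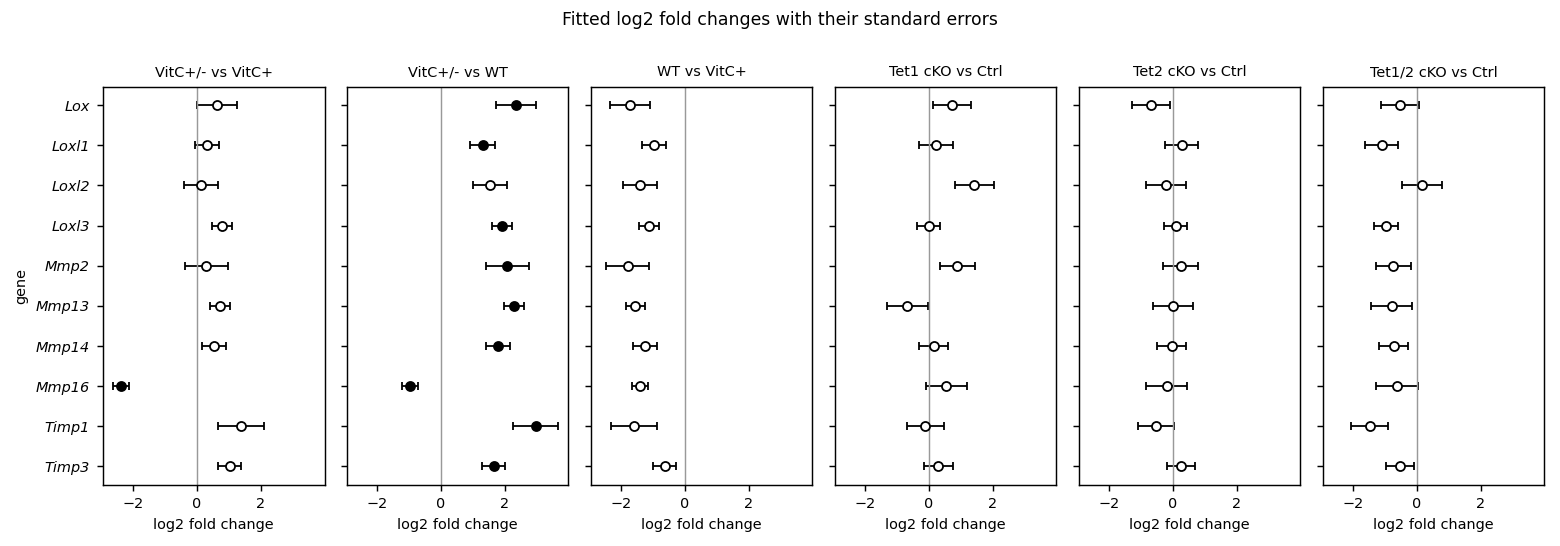
Log2 fold changes of the 10 genes in 6 comparisons, 3 of the VitC femurs and 3 of the Tet femurs (limma); bars are standard errors and filled circles mark an adjusted p under 0.05. Filled circles appear for Mmp16 (-2.37) in VitC+/- against VitC+ and for 9 genes in VitC+/- against WT, from -0.98 for Mmp16 to 2.96 for Timp1.

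The rest of these families was covered by 21 further genes, of which 11 were tested. Against VitC+, 3 fell in VitC+/- and 1 rose. Loxl4, another lysyl oxidase, went from 6.17 ± 2.85 to 1.23 ± 0.701 scaled RPKM (SD, n = 3; log2 fold change -1.96). Mmp8 and Mmp25, metalloproteinases of neutrophil granules and surface, had log2 fold changes of -1.62 and -1.75, and Mmp9, the gelatinase of osteoclasts and neutrophils, rose from 317 ± 79.6 to 823 ± 223 (log2 fold change 1.37). Against WT, 2 fell (Mmp8 and Mmp25) and 3 rose: Mmp9 by 2.23, Timp2, an inhibitor that also helps Mmp14 to activate pro-Mmp2, by 1.85 and Mmp11, named here after its value was seen, by 1.34.

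Of 20 genes that activate, anchor or regulate these enzymes, 18 were tested. After VitC withdrawal, against VitC+, Furin, a convertase that activates Mmp14, rose by 1.09 on the log2 scale, Plaur, the urokinase receptor, by 0.84, and Pcsk6, another convertase, fell by 2.55, while 14 did not pass. Against WT, 5 rose and none fell, among them Plat by 2.45, Fn1 by 2.05, Bmp1, which trims the Lox propeptide, by 1.54, and Furin, named after its value was seen, by 1.20.

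Markers of other cell types moved between the same groups. From VitC+ to VitC+/-, 10 of 20 osteoblast and osteocyte markers fell and 1 rose, with summed scaled RPKM of 7142 to 12417 and 3001 to 8660, none of the markers being at 0. Of 12 osteoclast markers, 6 rose and none fell, with sums of 1816 to 2334 and 2560 to 5697. Of 7 chondrocyte markers tested 3 fell, of 9 fibroblast markers 3 fell, of 12 neutrophil markers 2 fell, of 10 B-cell precursor markers 9 fell, of 7 erythroid markers 3 rose and of 11 adipocyte markers 1 rose. No muscle or endothelial marker passed. Against WT, 10 of 12 osteoclast, 8 of 11 adipocyte and 6 of 10 endothelial markers rose, 12 of 12 neutrophil markers fell, and osteoblast markers went both ways (3 fell, 2 rose). The part of these shifts in the member values was not tested.

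The genes with the most similar pattern over the 9 VitC libraries were looked up among 12570 genes, as the root mean square difference of centred log2 levels, a description with no test. Mmp13 lay nearest to Acp5 (0.169) and Ocstamp (0.171), both osteoclast genes. Lox lay nearest to Mmp2 (0.267) and Mmp2 to P4ha2 (0.218), a collagen prolyl hydroxylase subunit, with Lox next. Mmp16 lay nearest to Phex (0.228), an osteocyte endopeptidase, and its closest fellow member, Loxl1, came at rank 10417 with a difference of 1.24. The nearest gene was Pdgfrb for Loxl3 (0.0823), Dnm3os for Mmp14 (0.162) with Timp2 next (0.177), Col5a1 for Timp1 (0.334), Dzip1l for Timp3 (0.166), Sdc2 for Loxl2 (0.169) and Whrn for Loxl1 (0.176).

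In the Tet experiment the values are counts divided by a size factor per library, so levels are compared between libraries and not between genes. Timp1 was measured at 1177, 2021 and 1666 normalized counts in Ctrl and 285, 841 and 769 in Tet1/2 cKO femurs. Loxl1 was measured at 739, 1273 and 985 in Ctrl and 244, 681 and 570 in Tet1/2 cKO. Loxl3 was measured at 1698, 1977 and 1454 in Ctrl and 603, 1070 and 1018 in Tet1/2 cKO. For these 3 genes all Tet1/2 cKO libraries lay below all Ctrl libraries.

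The same held for Mmp2, with 8220, 9183 and 12422 normalized counts in Ctrl and 3622, 7793 and 7287 in Tet1/2 cKO, and for Mmp14, with 5240, 8647 and 6478 against 2761, 4912 and 4883. These 5 of 10 compare with 10% of all genes that lay apart in that direction and 7.37% in the other. Mmp16, which fell with VitC withdrawal, was measured at 654, 1052 and 1097 in Ctrl and 420, 740 and 671 in Tet1/2 cKO, with overlap. Mmp13 spread widely within Ctrl (16700, 78133 and 21675) and stood at 13757, 18946 and 21281 in Tet1/2 cKO.

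With limma on log2(normalized count + 1), 9 of 10 members had a negative log2 fold change in Tet1/2 cKO against Ctrl, from -1.47 (SE 0.57) for Timp1 and -1.10 (SE 0.52) for Loxl1 to -0.52 for Lox, with Loxl2 at 0.16 and a median of -0.72 beside -0.0072 over all 16780 genes. None was called (adjusted p = 0.723 to 0.939), nor was any other gene, 0% of those tested, with 847 genes at an unadjusted p under 0.05. On reads recovered from these values, DESeq2 called 11 genes and edgeR called 0, none of them members. Of 17 further family genes tested and 20 pathway genes, none was called, with medians of -0.56 and -0.64.

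The single knockouts gave no common direction. In Tet1 cKO, 7 members had a positive and 3 a negative log2 fold change, the largest being Loxl2 at 1.42 (3062, 3413 and 5991 normalized counts in Ctrl and 13271, 5854 and 15473 in Tet1 cKO, which overlap), with an adjusted p of 0.9998 by limma for every member. In Tet2 cKO the split was 5 and 5, with a median of -0.016. No member was called or stood apart in either. Over all genes, 0.0119% were called in each (0.00596% per direction), and in Tet1 cKO 3.54% lay apart lower and 4.28% higher, in Tet2 cKO 3.43 and 2.54%. All 3 comparisons share the Ctrl libraries. Tet2 cKO replicate 2 was the lowest of the 12 libraries for Lox, Loxl2 and Mmp16, at 1192, 1247 and 256 normalized counts.

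**Figure D3:**
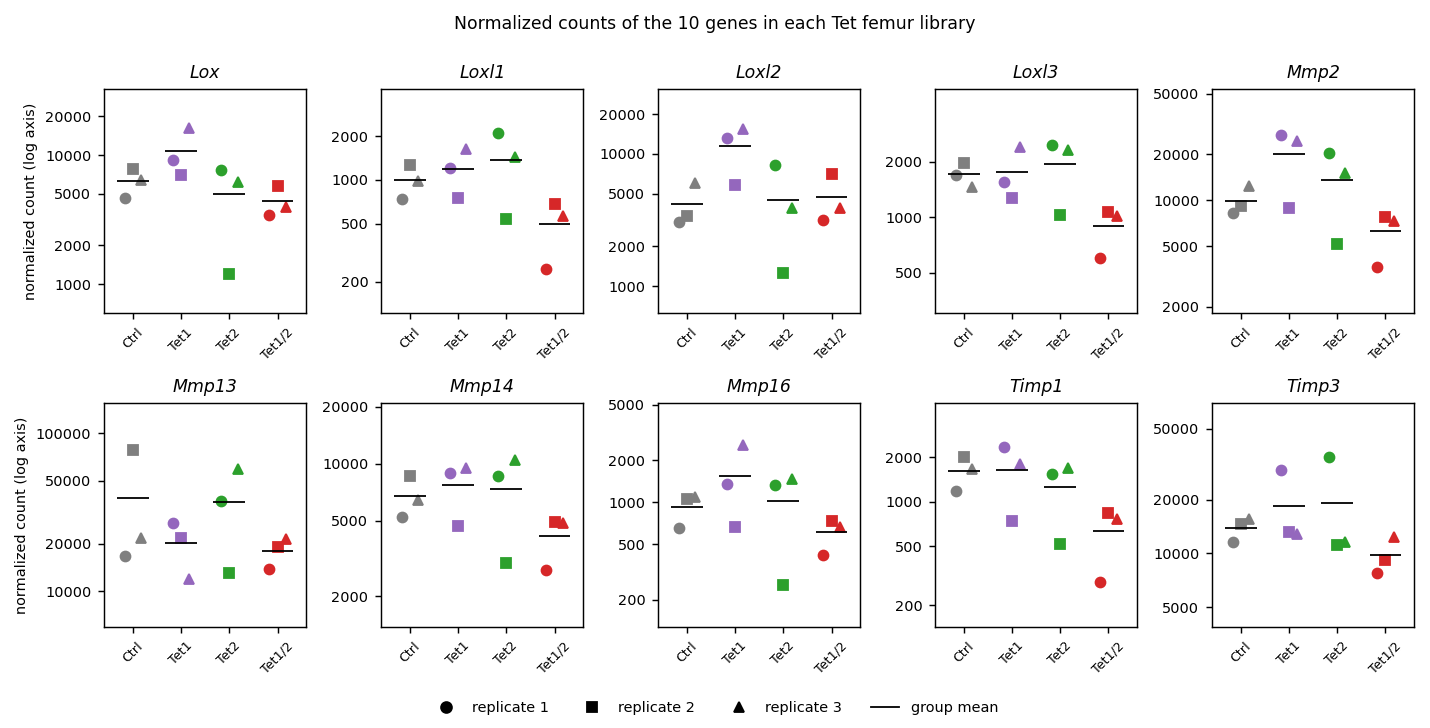
Normalized counts (log axis) of the 10 genes in femurs of Ctrl mice and of the Tet1, Tet2 and Tet1/2 cKO groups; symbols mark replicates 1 to 3 and the line is the group mean. For Timp1, Loxl1, Loxl3, Mmp2 and Mmp14 the 3 Tet1/2 cKO libraries lie below the 3 Ctrl libraries (285 to 841 against 1177 to 2021 for Timp1).

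The labels of the Tet groups were checked on the deleted genes. Over the whole gene, Tet1 had 374 to 435 normalized counts in Ctrl, 532 to 773 in Tet1 cKO and 415 to 485 in Tet1/2 cKO, and Tet2 had 2236 to 2512 in Ctrl, 1834 to 2245 in Tet2 cKO and 1851 to 2970 in Tet1/2 cKO. Neither gene lay below all Ctrl libraries in its knockouts, so this check does not settle the labels. Per the study's methods, a single exon of each gene was flanked for deletion. The counts are not split by exon, so the loss of that exon was not tested. The part of cells that keep their Tet genes in these counts was not tested either. Summed osteoblast and osteocyte markers were 352851 to 764042 normalized counts in Tet1/2 cKO and 1095722 to 1399299 in Ctrl, chondrocyte markers 12923 to 23660 and 26988 to 65020, and 15 of 20 osteoblast and 9 of 12 chondrocyte markers lay below all Ctrl libraries. Median log2 fold changes were -0.786 for osteoclast, -0.78 for fibroblast, -0.824 for adipocyte and -0.614 for endothelial markers. They were -3.82 for skeletal muscle, -0.415 for B-cell precursor, 0.435 for erythroid and 0.731 for neutrophil markers. No marker was called. Their part in the member values was not tested.

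Around the 10 genes, 259 5hmC peaks overlapped the windows in VitC+ femurs, 242 in VitC+/-, 216 in Ctrl, 133 in Tet1/2 cKO, 202 in MC3T3-E1 cells with VitC and 175 without. Peaks were called on pooled libraries, 3 per femur group and 2 per culture, so there is 1 list per group, no replicate check and no test. Mmp16, with a gene of 265252 bases, held 130 of the 259 and 126 of the 242 femur peaks but 48 of 216 in Ctrl and 8 of 133 in Tet1/2 cKO. Timp1, on the X chromosome, was not analysed in the VitC femur lists. The measure used here is the length of a window covered by peaks, and ratios were formed after adding 1000 bases to both lengths.

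After VitC withdrawal 6 of 9 windows had less coverage than in VitC+ and 3 had more. Over all genes 61.45% had less, so this count is near the background. The ratio of VitC+/- to VitC+ was 0.789 for Lox, 0.773 for Loxl3, 0.716 for Mmp2, 0.667 for Mmp14, 0.889 for Mmp16 and 0.901 for Timp3, and it was 1.06 for Loxl1, 1.29 for Loxl2 and 1.58 for Mmp13. With a fold of 1.5 as the mark, none of the 9 was lower and Mmp13 was higher, where 7.61% of all genes were lower and 11.1% higher. Mmp14, with 7777 covered bases in VitC+ and 4855 in VitC+/-, lay just short of the mark, and 7.63% of genes had a lower ratio. Both whole lists covered about the same length, 175.5 and 175 Mb. Mmp16, whose RNA fell, had 82206 covered bases in VitC+ and 72947 in VitC+/-, 25.3 and 22.4% of its window.

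Coverage was lower over nearly all genes in Tet1/2 cKO, and the whole list covered 273.4 Mb in Ctrl and 122.9 Mb in Tet1/2 cKO. The median enrichment of a peak was 3.448-fold in Ctrl and 4.017-fold in Tet1/2 cKO. At similar enrichment a peak could have a much lower -log10 q in Tet1/2 cKO. The strongest Mmp14 peak had 93.23 at 11.54-fold in Ctrl and 33.92 at 11-fold in Tet1/2 cKO. The part of depth or pulldown of the pools in the covered lengths was not tested. By the 1.5-fold mark 9 of the 10 members were lower, beside 85.9% of all genes (0.121% were higher), so the count is near the background. Mmp16 stood out within it: its covered length went from 27290 to 3849 bases, a ratio of 0.171, and 0.778% of genes had a lower one. Lox followed at 0.284, and the other members lay between 0.371 for Loxl2 and 0.684 for Mmp14, the last going from 26243 to 17642 bases. The Ctrl peaks around Mmp16 were weak, with a median of 3.024-fold beside 3.448-fold over the whole Ctrl list. Its strongest peak lay at nearly the same place in both lists, with 8.427-fold in Ctrl and 9.07-fold in Tet1/2 cKO. Of the 48 Ctrl peaks around Mmp16, 6 (12.5%) met a Tet1/2 cKO peak by at least 1 base, as did 27 of 36 (75%) around Timp3 and 12 of 17 (70.6%) around Mmp14, beside 46.7% over the whole Ctrl list.

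In MC3T3-E1 cells without VitC, 6 members had over 1.5-fold less covered length than with VitC and 2 had more, where 48.2% of all genes had less and 28.9% more. Timp3 went from 62385 to 22692 bases, 57.2 to 20.8% of its window and a ratio of 0.374. Lox, Mmp2 and Mmp14 each stood at 0.38 and Mmp13 at 0.429, with Loxl1 at 0.63. Mmp16 went from 6082 to 18677 bases (2.78) and Timp1 from 1463 to 3197 (1.70). Of the 34 peaks around Mmp16 without VitC, 3 (8.82%) overlapped a peak with VitC; of the 38 around Timp3, 34 (89.5%) did.

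**Figure D4:**
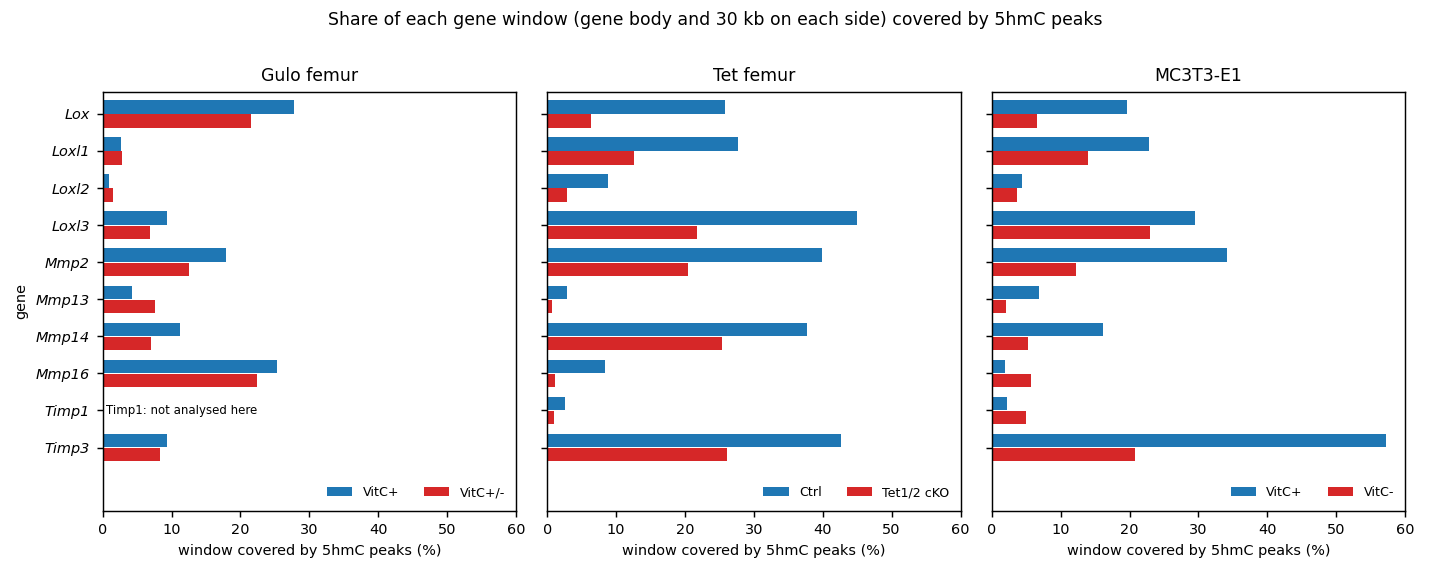
Percent of each gene's window (gene and 30 kb on either side) covered by 5hmC peaks in pairs of lists: VitC+ and VitC+/- femurs, femurs of Ctrl and Tet1/2 cKO mice, and the cell line with VitC or without it. Mmp16 shows 25.3 and 22.4% in the first pair, 8.39 and 1.18% in the second and 1.87 and 5.74% in the last, and Timp3 has 57.2 and 20.8% in the cells; Timp1 was not analysed in the first pair.

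Just after the Mmp13 start site, both VitC+ lists held a peak and none of the other 4 lists did. In MC3T3-E1 cells with VitC it lay at chr9:7272605-7273280, over the first exons of the gene, coding sequence included, with an enrichment of 11.7-fold, the highest in the window. In VitC+ femurs a peak of 3.51-fold lay at chr9:7272942-7273228. Neither VitC+/-, Ctrl or Tet1/2 cKO femurs nor cells without VitC had a peak within 1 kb of this start; the nearest lay 2306 bases into the gene in VitC+/- and 8171 in cells without VitC. The strongest VitC+/- peak of the window, 8.39-fold, lay at -14504 bases from the start. The window of Mmp13 holds no other gene.

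The 300 bases around the summit of 4 peaks show the sequence at the sites named here (GRCm38, plus strand): the Mmp13 start-site peak of the cells (chr9:7272648-7272947), the strongest femur peaks of Mmp16 (chr4:17914752-17915051, in an intron) and Mmp2 (chr8:92807546-92807845, between genes), and the peak before the Timp3 start (chr10:86299623-86299922, within the gene Syn3). Capitals mark CpG, the dinucleotide that carries most cytosine methylation.
Mmp13 peak: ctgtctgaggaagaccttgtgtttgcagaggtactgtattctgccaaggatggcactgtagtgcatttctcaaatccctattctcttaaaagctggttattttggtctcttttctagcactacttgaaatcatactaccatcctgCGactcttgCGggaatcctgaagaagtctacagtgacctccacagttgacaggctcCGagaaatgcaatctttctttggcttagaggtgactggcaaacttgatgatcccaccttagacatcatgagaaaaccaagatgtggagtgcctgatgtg
Mmp16 peak: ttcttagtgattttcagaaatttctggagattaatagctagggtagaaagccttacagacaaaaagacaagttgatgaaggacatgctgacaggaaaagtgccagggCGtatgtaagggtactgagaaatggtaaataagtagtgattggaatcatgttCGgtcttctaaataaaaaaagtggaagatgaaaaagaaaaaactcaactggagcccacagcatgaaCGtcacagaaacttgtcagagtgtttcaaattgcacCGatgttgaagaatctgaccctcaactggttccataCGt
Mmp2 peak: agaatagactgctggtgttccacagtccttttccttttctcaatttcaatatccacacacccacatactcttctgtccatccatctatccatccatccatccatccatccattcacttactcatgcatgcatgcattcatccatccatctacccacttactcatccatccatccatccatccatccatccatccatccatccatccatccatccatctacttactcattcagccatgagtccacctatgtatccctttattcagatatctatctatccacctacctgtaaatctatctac
Timp3 peak: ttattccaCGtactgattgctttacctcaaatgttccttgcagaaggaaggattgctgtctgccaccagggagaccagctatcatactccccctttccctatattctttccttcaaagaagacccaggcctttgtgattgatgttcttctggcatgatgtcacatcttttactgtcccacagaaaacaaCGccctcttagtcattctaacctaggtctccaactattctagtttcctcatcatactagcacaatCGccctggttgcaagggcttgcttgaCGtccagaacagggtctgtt

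The Mmp13 stretch holds 3 CpG, the Mmp16 stretch 5 and the Timp3 stretch 4. The Mmp2 stretch holds no CpG and 25 copies of the letters atcc, part of them in tandem repeats, which cover 82 bases of the peak. This Mmp2 peak had 17.7-fold enrichment in VitC+ and 12.9-fold in VitC+/- femurs, 19.6 kb before the gene. The Mmp16 peak had 18.1-fold enrichment in VitC+ and 17.8-fold in VitC+/- femurs at nearly the same place, 61.4 kb into the gene. The Timp3 peak, 640 bases before the start, had 13.6-fold enrichment in VitC+ and 8.32-fold in VitC+/- femurs, and a peak near it had 17.7-fold in cells with VitC and 4.47-fold in cells without.

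**Figure D5:**
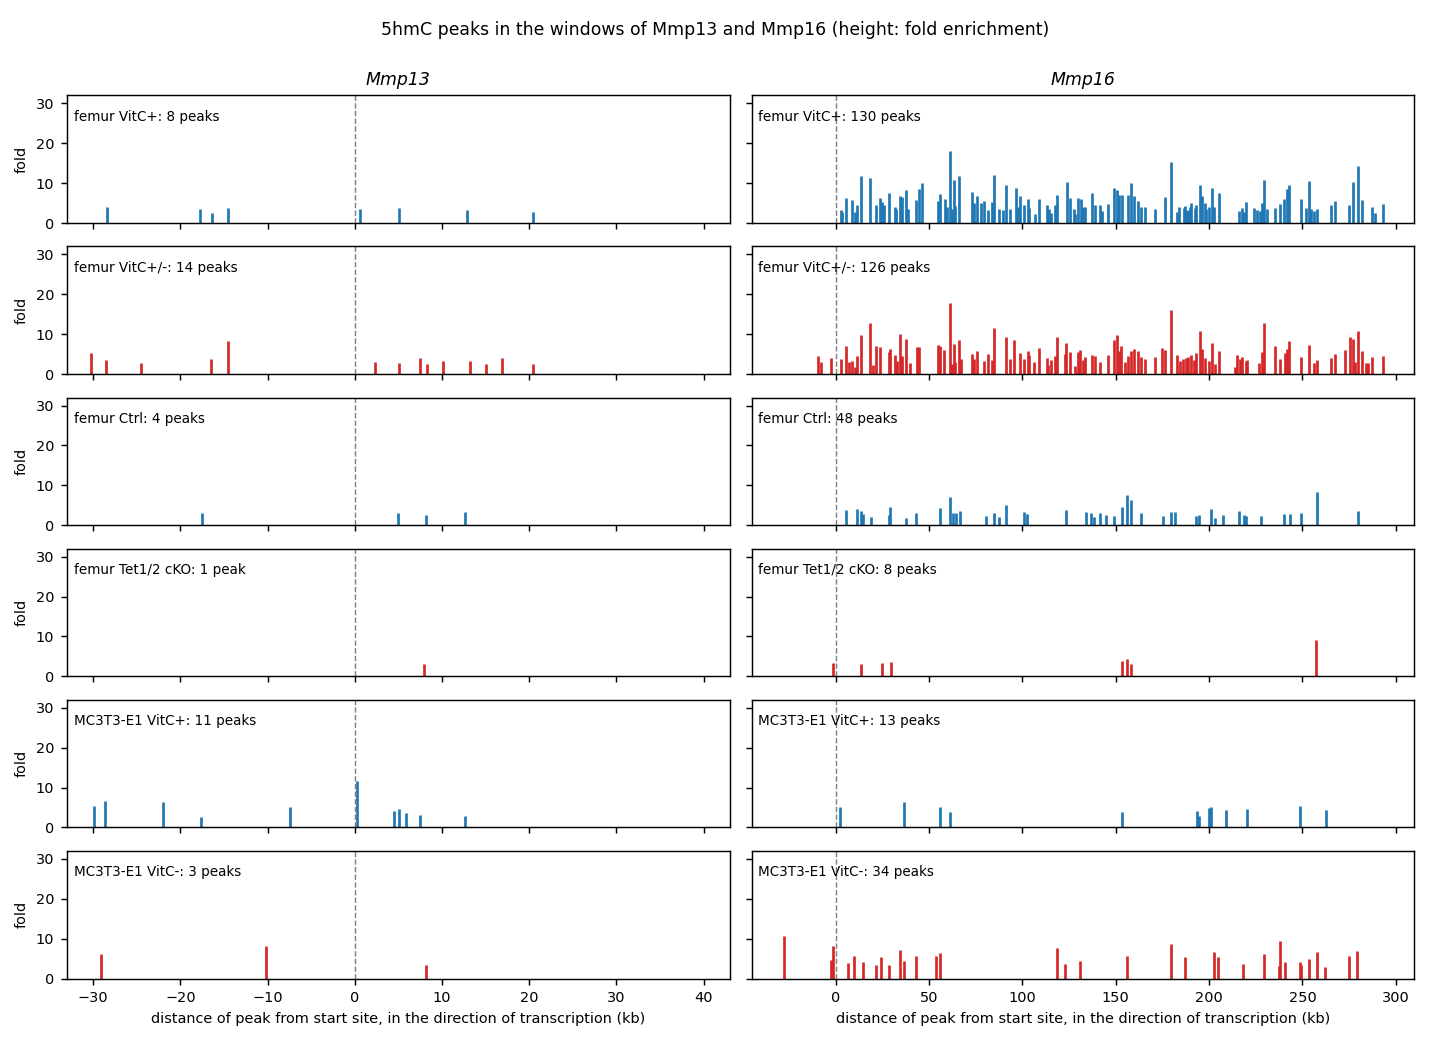
5hmC peaks in the windows of Mmp13 and Mmp16 in the 6 lists, drawn by distance from the start site in kb with fold enrichment as height. The Mmp13 start site has a peak in VitC+ femurs (3.51-fold) and in cells with VitC (11.7-fold) only, and Mmp16 has 130 and 126 peaks in the Gulo femur lists, 48 in Ctrl and 8 in Tet1/2 cKO.

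Peaks without any CpG made up 1.16% of the member peaks in VitC+ and 3.72% in VitC+/- femurs (7.79 and 12.9% over the whole lists), 0.463 and 1.5% in Ctrl and Tet1/2 cKO (1.31 and 2.25% over the whole lists), and 0 and 7.43% in cells with and without VitC (0.39 and 12.9% over the whole lists). Tandem repeats of at least 24 bases lay in 23.9% of the member peaks in VitC+ and 26.9% in VitC+/- femurs, beside 21.2 and 23.7% over the whole lists. Of the 13 CpG-free peaks in cells without VitC, 7 lay in the window of Mmp16, among 34 peaks, and 4 in that of Timp1, among 8. These were the members with over 1.5-fold more covered length there.

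Histone marks of silenced chromatin were mapped in MC3T3-E1 cells with and without VitC, again as 1 pooled list each. The peak names and the study's methods give 7 days of culture for these samples, and their treatment label gives 28. H3K27me3 peaks lay near Loxl3, Timp1 and Timp3 with VitC and near Loxl3, Mmp14 and Timp3 without it, 3 of the 10 members each, where 62.6 and 67% of all genes had one; none of the member peaks was over 2.97-fold enriched or reached a -log10 q of 5. H3K9me3 peaks lay near 6 members with VitC and 7 without, beside 50.5 and 59.8% of all genes, and 1 of these, near Mmp13 without VitC, reached that mark. Mmp14 (1.81) and Timp3 (1.73) had over 1.5-fold more H3K27me3 cover without VitC and no member less, where 53.1% of all genes with a peak had more and 1.87% less. For H3K9me3 cover, Loxl1 (2.63) and Mmp2 (1.85) had more and Loxl3 (0.569) less, where 47.4% of all genes with a peak had more and 6.95% less.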

How the data were processed

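Femur RNA was sequenced in 9 libraries of the VitC and 12 of the Tet experiment, and 5hmC and histone peaks were pooled lists. Per the labels, the submitters' processing notes name FastQC 0.72, Trim Galore 0.4.3.1, STAR 2.6.0b-1, featureCounts 1.6.3, DESeq2 2.11.40.2, BWA 0.7.15.1, MACS2 2.1.1.20160309.6 and the build mm10. The authors deposited RPKM for the VitC femurs; the study's methods name cufflinks for FPKM and give no program for these RPKM values. For the Tet femurs the authors deposited counts divided by a size factor (a normalized count signal). In the peak lists of the authors, each peak has a fold enrichment (a ratio) and a -log10 q-value.

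RPKM was rescaled by median ratios and fitted with limma 3.58.1 (R 4.3.3) on log2(scaled RPKM + 0.5) over all 3 VitC groups, for genes with at least 1 in 3 libraries. Normalized counts were fitted on log2(value + 1), for genes with at least 10 in 3 libraries, over all 4 groups. Adjusted p-values are Benjamini-Hochberg over all genes tested, with a threshold of 0.05. The low steps of the deposited values gave whole reads: 100% within 0.01 reads in the Tet table, on which edgeR 4.0.16 and DESeq2 1.42.0 were run as alternatives without Tet1 cKO replicate 3, whose column did not pass a stricter check of whole reads; edgeR called 0, 1 and 0 and DESeq2 13, 14 and 11 genes in Tet1, Tet2 and Tet1/2 cKO. In RPKM, 93.7 to 94.9% of low values came within 0.1 reads of a whole number, which gave the depths.

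Fits and peak counts were tested on simulated data. Peak windows used gene positions in the deposited RPKM tables (mm10), sequences came from RefSeq GRCm38.p6, and a tandem repeat was a unit of 2 to 6 bases in at least 6 copies. The genes named beyond the 10 are those of each list called with the largest change, and the 2 nearest in pattern. The members and lists were chosen with earlier results of these data known. The result of 1 listed gene is not reported here.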

Additional observations from a re-analysis of the deposited data

How the results depend on the processing

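Mmp16 was called as lower in VitC+/- than in VitC+ femurs in every alternative that tested it, with log2 fold changes of -2.54 to -2.18 over single libraries left out; a minimum RPKM of 5 removed it and left 0 members called. Leaving out 1 library gave 1 to 4 members called in that comparison, 5 to 10 in VitC+/- against WT and 0 to 3 in WT against VitC+, and the direction turned for Lox (-0.060 to 1.30), Loxl1 (-0.018 to 0.58), Loxl2 (-0.48 to 0.66) and Mmp2 (-0.45 to 1.04) in VitC+/- against VitC+, each without VitC+/- replicate 3 and Loxl2 also without VitC+ replicate 1. The share of all genes called in each of those fits is not given here. With the replicate block, 2 members were called (Mmp13 added), 10 against WT (Loxl2 added) and 6 in WT against VitC+ (Lox, Loxl3, Mmp2, Mmp13, Mmp14 and Mmp16), and 2169, 4465 and 774 genes in all. Same-numbered libraries correlated at -0.192 to 0.465 (VitC) and -0.567 to 0.529 (Tet). Differently numbered ones did so at -0.37 to 0.415 and -0.621 to 0.555. The numbers were therefore not taken to pair the libraries, although 6 of 9 and 3 of 12 libraries correlated best with their own number. The calls in WT against VitC+ depend on this choice. With no filter on low values 7 members were called against WT, and 8 in a fit of those 2 groups alone. With no rescaling, 876 rather than 1692 genes were called against VitC+.

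In the Tet comparisons no member was called under any alternative. Directions turned when 1 library was left out, in Tet1 cKO for Loxl1 (-0.032 to 0.52), Loxl3 (-0.27 to 0.19), Mmp13 (-1.10 to 0.0091), Mmp14 (-0.033 to 0.47), Timp1 (-0.44 to 0.38) and Timp3 (-0.092 to 0.50), and in Tet1/2 cKO for Loxl2 (-0.18 to 0.46). In Tet2 cKO they turned for Lox (-1.18 to 0.16), Loxl1 (-0.15 to 0.83), Loxl2 (-0.85 to 0.52), Loxl3 (-0.14 to 0.50), Mmp2 (-0.15 to 0.84), Mmp13 (-0.47 to 0.69), Mmp14 (-0.39 to 0.52), Mmp16 (-0.64 to 0.62), Timp1 (-0.82 to 0.033) and Timp3 (-0.29 to 0.54). Count tests on recovered reads, by edgeR and DESeq2, turned Loxl1 in Tet1 cKO (-0.022 and -0.028) and, in Tet2 cKO, Loxl2 (0.12 and 0.10), Mmp13 (-0.076 and -0.088), Mmp14 (0.14 and 0.12) and Mmp16 (0.14 and 0.12); the cause was not tested.

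For 5hmC, members with over 1.5-fold less covered length in VitC+/- than in VitC+ numbered 0. They numbered 1 with peaks counted around the start site, with a -log10 q of at least 5 or with length weighted by fold. Members with over 1.5-fold more numbered 2, 0 and 2 in these settings. In the gene body alone 2 had less and 1 had more. For Tet1/2 cKO 9 became 5 in the gene body alone or with a 2-fold mark, and 0 had more. For cells 6 became 3 by number of peaks, and 2 had more. Shares of all genes at these settings are not given here. At a -log10 q of at least 5, members with a histone peak went from 3 to 0 (H3K27me3, both cultures), 6 to 0 and 7 to 1 (H3K9me3). An overlap of at least 50% of a peak lowered the shared share to 37% for Ctrl peaks and to 19.8 and 48% for cells with and without VitC. Pooled lists give no spread, and WT replicate 1 rests on 7.61 M reads.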
